A study of Homo sapiens with 14 samples.

Results

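The 10 genes described here are targets and feedback inhibitors of the FGF/ERK signalling pathway, and they fall into families of phosphatases, signalling inhibitors and transcription factors. DUSP4, DUSP5 and DUSP6 are dual specificity phosphatases that remove activating phosphates from ERK. SPRY1, SPRY2, SPRY4 and SPRED2 are Sprouty and Spred proteins, which restrain signalling between receptor tyrosine kinases, RAS and RAF. ETV1, ETV4 and ETV5 are the ETS transcription factors of the PEA3 group, which act downstream of FGF receptors. The members were chosen by name, 10 of the 20033 protein-coding genes of GENCODE 44, and each locus was taken as the hg38 gene body with 60 kb on each side. The 10 windows did not overlap and covered 1602 kb in all.

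ERK activity raises transcription of many of its own inhibitors, so that DUSP, SPRY and ETV genes are commonly read as a record of pathway activity. Primed human embryonic stem cells (hESCs) depend on FGF2 and ERK, whereas naïve hESCs are maintained with ERK signalling blocked. The BAF complex is a chromatin remodeller of the SWI/SNF family. BRG1 and BRM are its alternative ATPases, BAF155 is a core scaffold subunit, and SOX2 is a pluripotency transcription factor with which BAF often shares sites.

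ChIP-seq peak lists came from 1 human embryonic stem cell line, WIBR3. Primed cells were grown conventionally in medium with FGF2. Naïve cells were held in 5i/L/A medium, which contains the MEK inhibitor PD0325901, the BRAF inhibitor SB590885, the SRC inhibitor WH4-023, the GSK3 inhibitor IM-12, the ROCK inhibitor Y-27632, LIF and Activin A. The naïve cells had been converted from primed cells and expanded polyclonally, and both states were kept on mouse feeder cells. Of 14 libraries, 4 were inputs and the other 10 had a peak list. There was 1 library for each state with antibodies to BRG1, BAF155 and BRM, and the 2 SOX2 lists of a state had identical coordinates and were counted as 1 sample. With 1 list per group there is no replicate error, no test across samples was possible, and no transcript level was measured here. Intervals given for shares are exact Clopper-Pearson 95% intervals that cover counting error only. The lists give no read totals, and read depth was not used here. The lists held 57884 naïve and 15611 primed BRG1 peaks, 62338 naïve and 58352 primed BAF155 peaks, 17413 naïve and 167 primed BRM peaks, and 1940 naïve and 9290 primed SOX2 peaks, so that the list lengths of a state pair differed for every antibody except BAF155 by more than 3 times. BAF regions are the merged BRG1 and BAF155 peaks of a state. A region was called common when it shared at least 25% of either region with one of the other state, and naïve-only or primed-only otherwise. With 1 added to each count, 8 of 8 naïve state markers had at least 2 times more naïve-only than primed-only regions. Of 8 primed state markers 6 had the reverse. Over all protein-coding genes these shares were 51.0% and 12.4%. TFAP2C, SALL1 and PTPRZ1 among the markers are loci the paper displayed from these BAF data, so this check is not independent.

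The sequences below are those of the sites on which the description turns, read from the plus strand of hg38 as 200 bases at the midpoint of each site. They are the strongest primed SOX2 peak, the strongest naïve one outside annotated exons, the 3 primed SOX2 peaks that overlapped a naïve one, the naïve-only BAF region of highest fold with BRM, and the primed-only BAF region of highest fold with SOX2. Sequences labelled SOX2 in both states are centred on the primed peak, and not every base shown lies in the naïve peak. Capitals mark the SOX letters CATTGT or CTTTGT and the OCT letters ATGCAAAT, on either strand.
SPRY2 upstream, primed SOX2 peak of fold 22.3, chr13:80359708-80359907: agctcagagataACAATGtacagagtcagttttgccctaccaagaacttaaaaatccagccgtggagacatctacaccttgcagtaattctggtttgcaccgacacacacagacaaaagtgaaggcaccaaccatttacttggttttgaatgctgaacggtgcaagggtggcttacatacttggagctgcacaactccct
DUSP6 gene, naïve SOX2 peak of fold 8.08, chr12:89349967-89350166: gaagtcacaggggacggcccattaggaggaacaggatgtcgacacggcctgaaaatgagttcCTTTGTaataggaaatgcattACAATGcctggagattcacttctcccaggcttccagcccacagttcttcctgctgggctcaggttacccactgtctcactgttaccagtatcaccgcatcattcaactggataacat
DUSP6 gene, SOX2 in both states, chr12:89350163-89350362: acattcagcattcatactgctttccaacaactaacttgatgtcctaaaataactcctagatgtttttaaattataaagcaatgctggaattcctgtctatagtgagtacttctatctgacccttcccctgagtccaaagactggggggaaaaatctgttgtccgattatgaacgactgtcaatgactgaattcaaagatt
SPRED2 downstream, SOX2 in both states, chr2:65275305-65275504: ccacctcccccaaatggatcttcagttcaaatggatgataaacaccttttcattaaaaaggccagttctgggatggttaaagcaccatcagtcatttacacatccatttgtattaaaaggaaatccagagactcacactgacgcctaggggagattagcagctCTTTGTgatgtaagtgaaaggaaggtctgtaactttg
SPRY2 downstream, SOX2 in both states, chr13:80276524-80276723: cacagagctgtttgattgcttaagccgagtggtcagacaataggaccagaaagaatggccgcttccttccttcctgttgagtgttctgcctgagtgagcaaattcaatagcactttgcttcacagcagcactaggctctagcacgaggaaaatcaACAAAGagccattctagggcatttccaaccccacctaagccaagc
DUSP5 upstream, naïve-only with BRM, chr10:110456774-110456973: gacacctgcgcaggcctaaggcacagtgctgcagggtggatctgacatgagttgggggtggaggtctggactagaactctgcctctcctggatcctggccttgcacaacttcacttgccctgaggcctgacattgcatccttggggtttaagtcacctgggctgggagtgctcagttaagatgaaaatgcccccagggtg
SPRY1 upstream, primed-only with SOX2, chr4:123378732-123378931: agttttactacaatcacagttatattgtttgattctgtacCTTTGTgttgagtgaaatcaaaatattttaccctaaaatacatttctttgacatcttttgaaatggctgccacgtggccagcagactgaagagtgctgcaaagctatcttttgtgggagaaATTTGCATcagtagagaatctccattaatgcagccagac
The SPRY2 upstream peak held 1 run of SOX letters and the DUSP6 naïve peak held 2. The SPRED2 and SPRY2 sequences labelled SOX2 in both states held 1 run each. At SPRED2 the run lay in the peaks of both states. At SPRY2 it lay in the primed peak only, just beyond the end of the naïve peak at chr13:80276676. The 200 bases shown of the SPRY1 primed-only region held 1 run of SOX letters and 1 of OCT letters. The OCT run lay inside the SOX2 peak of that region, and the SOX run lay outside it. The 200 bases shown of the DUSP5 region that naïve BRM occupied held neither. Neither did the midpoint bases of the primed DUSP6 peak that overlapped naïve ones, and most of those bases lay between the naïve peaks. The naïve DUSP6 sequence shown, with its 2 runs of SOX letters, lay inside that primed peak.

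Across the loci, BAF regions were about as often primed-only as naïve-only, while over the whole lists as deposited naïve-only regions were more frequent. The 10 loci held 36 BAF regions seen only in naïve cells, 37 seen only in primed cells and 36 shared by both. The ratio of naïve-only to primed-only regions was 0.973 at the loci and 1.59 over the whole lists, where 48336 regions were naïve-only and 30335 primed-only. The whole-list excess of naïve-only regions depended on the peaks used. When the lists of both states were cut to equal length by rank, the ratio was 0.651 at the loci and 1.01 over the whole lists. When peaks needed a −log10 q of 3 or more, it was 0.393 at the loci and 0.791 over the whole lists. With a fold enrichment of at least 4 it was 0.286 in both, where the loci held 4 naïve-only and 14 primed-only regions.

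Only 2 of the 10 loci, SPRY2 and ETV4, had at least 2 times more naïve-only than primed-only regions after 1 was added to each count, against 51.0% of all protein-coding genes. With BAF155 peaks alone or equal list lengths 0 loci did, and with a fold of at least 4 both SPRY2 and ETV4 had at least 2 times more primed-only regions. In the other direction 5 of the 10, namely DUSP6, SPRY1, SPRED2, ETV1 and ETV5, had at least 2 times more primed-only regions, against 12.4% of all genes. DUSP6, SPRY1, SPRED2 and ETV5 were exactly on this cutoff, with a log2 balance of -1.00. Only ETV1, at -1.22, was beyond it. The background under this rule rose with equal list lengths, to 21.5% of all genes against 5 loci, and with BAF155 peaks alone, to 19.6% against 5. It was 26.3% against 4 loci when peaks needed a −log10 q of 3 or more, and 36.5% against 6 with a fold of at least 4. The median log2 balance of naïve-only to primed-only regions was -0.50 over the 10 loci and 1.00 over all protein-coding genes. The parity depended on distance. Within 20 kb of the gene bodies 23 regions were naïve-only and 28 primed-only, whereas within 100 kb 63 were naïve-only and 45 primed-only, and 1 locus of 10 then had at least 2 times more primed-only regions, near the 10.8% of all genes. With an overlap of at least 50% of both regions 1 locus did, near the 8.96% of all genes. When 1 shared base was enough 4 loci did, SPRY1 no longer among them, against 12.6% of all genes.

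**Figure D1:**
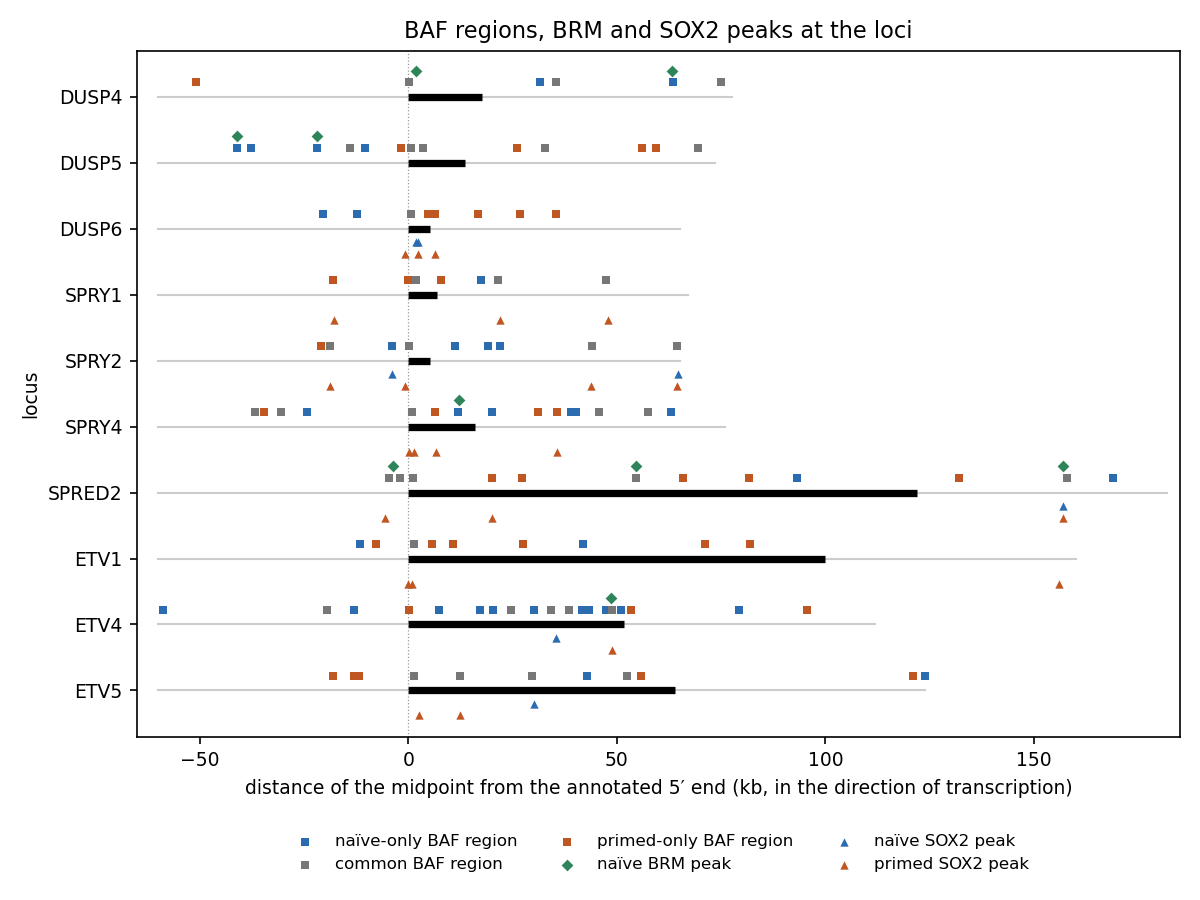
Position of each BAF region, BRM peak and SOX2 peak at the 10 loci, as the distance of its midpoint from the annotated 5′ end in kb along the direction of transcription; black bars are gene bodies and grey lines the windows. Common regions sit at or near the 5′ end of 9 genes, naïve-only regions crowd the ETV4 gene body, and SOX2 peaks are absent from DUSP4 and DUSP5.

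Counts of single subunits are shown side by side. At the loci there were 57 naïve and 28 primed BRG1 peaks, a ratio of 2.04 where the whole lists had 3.71. For BAF155 there were 62 naïve and 73 primed peaks, a ratio of 0.849 against 1.07. With 1 added to each count, at least 2 times more naïve than primed BRG1 peaks were present at 2 of the 10 loci, SPRY4 and ETV4. This rule was met by 74.2% of all genes. With 1 added likewise, at least 2 times more primed than naïve BAF155 peaks were present at ETV1 alone, 1 of 10. The share of all genes was 10.4%. Without the added 1, DUSP5 (6 naïve and 3 primed BRG1 peaks) and SPRY1 (3 naïve and 6 primed BAF155 peaks) would also qualify. The 2 states held the same number of BAF155 peaks at SPRY2, with 5 each, and at DUSP4, with 4 each.

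**Figure D2:**
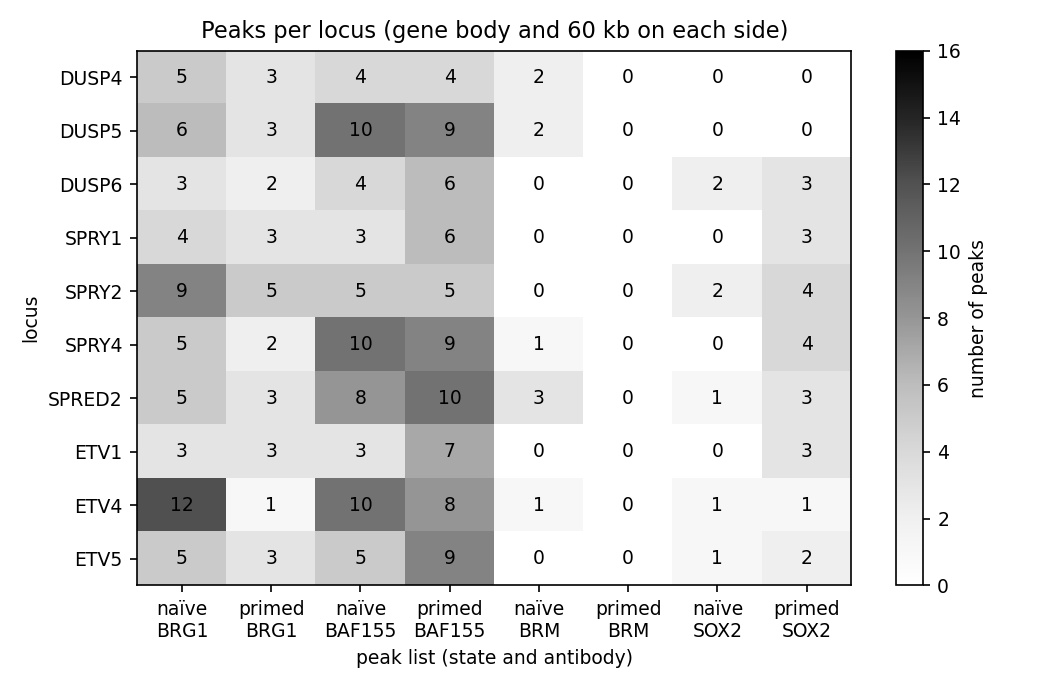
Number of peaks in each of the 8 lists at each locus (gene body and 60 kb on each side), with darker cells for more peaks. ETV4 has the most naïve BRG1 peaks, 12, and the fewest primed ones, 1; BAF155 counts lie between 3 and 10.

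The naïve-only regions were away from promoters. Of 36 naïve-only regions at the loci, 0 had a midpoint within 1 kb of an annotated transcription start site (TSS), which allows a share of up to 8.33% by the limit of 3 counts and 9.74% by the exact interval, whereas 13.7% of all naïve-only regions did. Among primed-only regions 6 of 37 did, 16.2% with an interval of 6.19 to 32.0%, close to the 14.6% of the whole class. Of these 6, 4 were at a start of the member gene itself, namely SPRY1, SPRED2, ETV1 and ETV4. The SPRY1 region, chr4:123396563-123396729, ran into the edge of a naïve BAF region, chr4:123396701-123399920. It was classed as primed-only because the shared part was smaller than the overlap rule required. The naïve region covered the annotated start of SPRY1, so that start was not free of BAF in naïve cells. Naïve-only regions at the loci lay in introns in 21 cases, between genes in 13 and in exons in 2.

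All the members except ETV4 had a BAF region of both states within 1 kb of the annotated 5′ end. That was 9 of 10, against 58.6% of all protein-coding genes. With a −log10 q of at least 3 it was 3 members, against 15.6% of genes, and with a fold of at least 4 it was 0, against 1.38%. At the reported settings a region of both states was not particular to the 10 loci. It was present at 20 of 20 further feedback and ERK-responsive genes and 21 of 21 kinase cascade and adaptor genes, described below. Of 16 other ETS factors 12 had it. The annotated 5′ end of ETV4 belongs to a long transcript and carried a primed-only region, chr17:43578999-43579835, of fold 3.54. Other ETV4 starts were covered in both states by a common region of 2.90 kb at chr17:43543890-43546789. When any annotated transcript start of the gene was allowed, all 10 had a region of both states, against 65.9% of all genes.

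The regions at the 5′ ends were wider in primed than in naïve hESCs at 8 of the 9 genes that had both. The primed regions were wide at all the members except ETV4, with 0.432 to 7.22% of genes with a primed region having one as wide. The naïve regions ranged from 256 bp at DUSP6, where 95.7% of genes with a naïve region had one as wide, to 3220 bp at SPRY1, where 2.70% did. This comparison was chosen after the values were seen. Over the 11748 genes with a region of both states, the primed region was wider in 56.7%, and the median widths were 1064 bp in naïve and 1187 bp in primed cells. At DUSP6 the naïve region spanned 256 bp and the primed region 5188 bp, 20.3 times as much, and within 5 kb of the 5′ end naïve regions covered 0.934 kb and primed regions 5.35 kb. That naïve region was a single BRG1 peak of fold 2.33 and −log10 q 1.07, where the lowest of its list was 1.00. With BAF155 peaks alone DUSP6 had no naïve region within 1 kb of the 5′ end and left the comparison. DUSP4 had the widest primed region of the 10 genes, 5938 bp against 3055 bp in naïve cells, and only 0.432% of genes with a primed region had one as wide. At ETV1 the widths were 2303 bp naïve and 4826 bp primed, and at SPRY2 they were 2738 bp and 4535 bp. ETV5 went from 1021 bp naïve to 3049 bp primed, DUSP5 from 1007 to 2716 bp and SPRY4 from 1229 to 3263 bp. SPRED2 was closer in both states, with 2585 bp naïve and 3214 bp primed. SPRY1 was the exception, with 3220 bp naïve and 2910 bp primed. A primed region at least 2 times wider than the naïve one was present at 5 of these 9 genes (DUSP5, DUSP6, SPRY4, ETV1 and ETV5), against 18.4% of all genes, and the reverse was present at 0 of 9, against 10.8%. With BAF155 peaks alone the count of the wider primed region was 7 of 8, against 28.1% of all genes. When peaks were limited to a fold enrichment of at least 3, 2 members had a region of both states at the 5′ end and the count was 1, against 22.6%. The part of read depth in these widths was not tested.

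**Figure D3:**
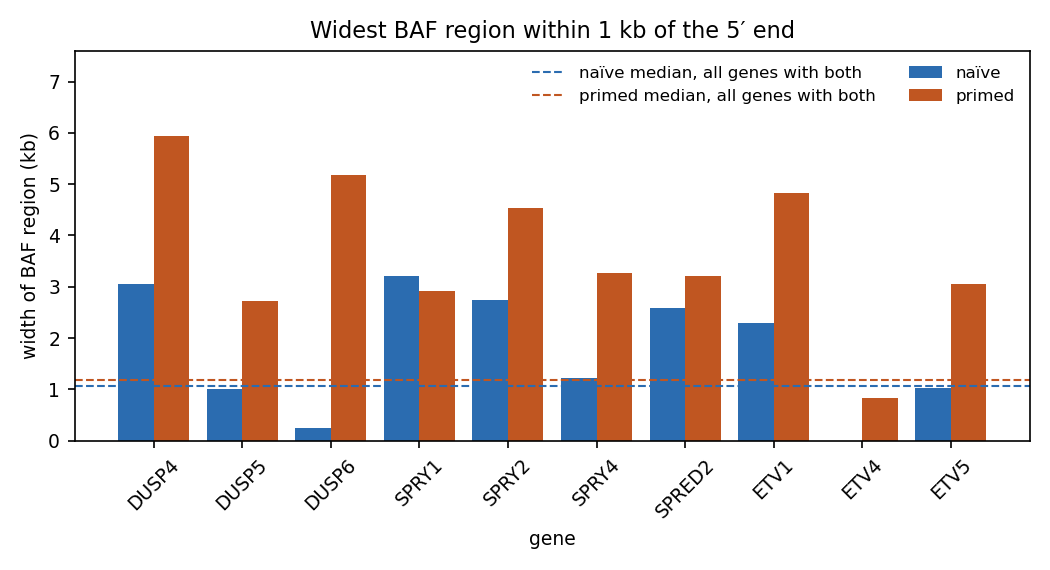
Width in kb of the widest BAF region within 1 kb of the annotated 5′ end of each gene, naïve in blue and primed in orange, with dashed lines at the medians of 1064 and 1187 bp over all genes that have both. Primed bars are taller at every gene with both except SPRY1, and ETV4 has no naïve bar.

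SOX2 peaks were frequent at these loci in primed cells. There were 23 primed and 7 naïve SOX2 peaks, a ratio of 0.304 naïve to primed where the whole lists had 0.209. These were 0.248% of the primed and 0.361% of the naïve list. The primed excess depended on list length. When both lists were cut to equal length by rank, the loci held 5 primed and 7 naïve SOX2 peaks. At least 1 primed SOX2 peak was present at 8 of the 10 loci, all but DUSP4 and DUSP5, against 42.5% of all protein-coding genes. At least 1 naïve SOX2 peak was present at 5 of the 10, DUSP6, SPRY2, SPRED2, ETV4 and ETV5, against 13.2% of all genes. Of the 23 primed peaks, 9 lay within 1 kb of a TSS, 39.1% with an interval of 19.7 to 61.5%, and all 9 were at a start of the member gene. Over the whole primed list 16.1% were that close to a TSS. Of the 7 naïve peaks 4 were within 1 kb of a TSS, 57.1% with an interval of 18.4 to 90.1%, against 9.95% of the whole naïve list.

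Primed SOX2 peaks at the loci were almost all inside BAF regions of primed cells. This held for 22 of 23, 95.7% with an interval of 78.1 to 99.9%, and for 88.4% of the whole list. The share depended on the overlap asked for, as it did over the whole list. It was 60.9% against 63.4% with at least 25% of both sites, 26.1% against 32.9% with at least 50% of both, and 40.9% against 45.2% with a fold of at least 4. The exception was the ETV1 peak 156 kb downstream of the 5′ end, of fold 4.75. Naïve BAF regions covered 13 of the 23, 56.5% with an interval of 34.5 to 76.8%, against 41.6% of the whole list. Seen from the BAF regions, 14 of 36 common regions held a primed SOX2 peak, 38.9% with an interval of 23.1 to 56.5%, where 14.0% of all common regions did. Among primed-only regions 5 of 37 did, 13.5% with an interval of 4.54 to 28.8%, against 13.4% of the class. None of the 36 naïve-only regions held one, with an interval of 0 to 9.74%. SOX2 peaks of the 2 states coincided at 4 of the 7 naïve peaks, which met 3 primed peaks, at DUSP6, SPRY2 and SPRED2.

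**Figure D4:**
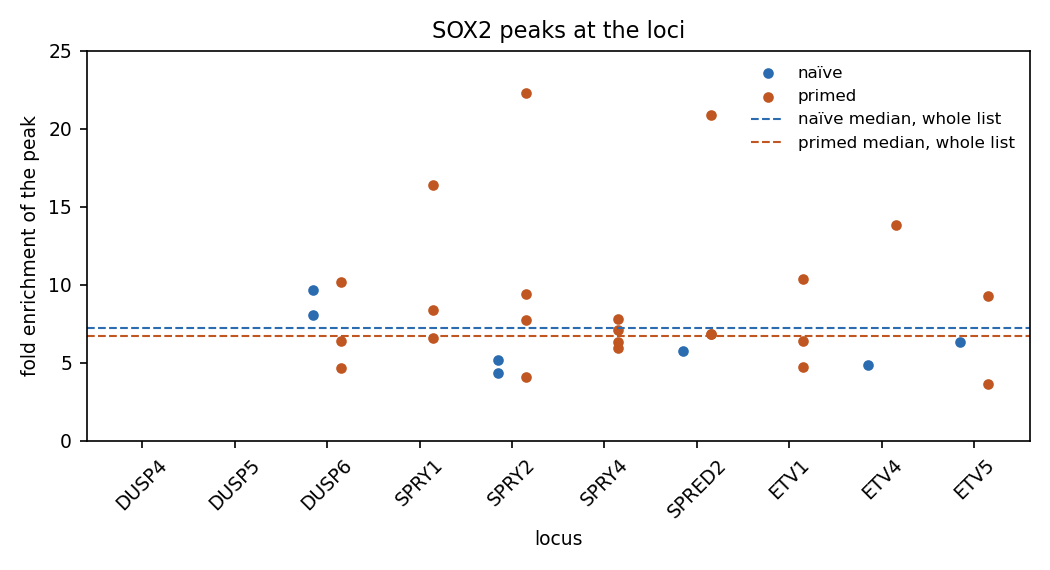
Fold enrichment over input of every SOX2 peak at the 10 loci, naïve in blue and primed in orange; dashed lines are the median folds of the whole lists, 7.26 naïve and 6.73 primed. The highest primed peaks, at SPRY2, SPRED2 and SPRY1, exceed every naïve peak, and the 2 naïve peaks of DUSP6 are the highest of their state.

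Naïve BRM was sparse. The loci held 9 naïve BRM peaks and 0 primed ones, and all 9 naïve peaks lay in naïve BAF regions. At least 1 naïve BRM peak was present at 5 of the 10 loci, DUSP4, DUSP5, SPRY4, SPRED2 and ETV4, against 70.1% of all genes. Of 79 naïve BAF regions at the loci 9 held a BRM peak, 11.4% with an interval of 5.34 to 20.5%, where 20.4% of all naïve BAF regions did. Among common regions 5 of 36 did, 13.9% with an interval of 4.67 to 29.5%, against 32.0%. No member had a BRM peak within 1 kb of its annotated 5′ end, 0 of 10, against 16.4% of all genes. The nearest were at DUSP4, 1.74 kb inside the gene with a fold of 3.04, and 3.58 kb upstream of SPRED2 with a fold of 2.78. The primed list held 167 BRM peaks in the whole genome.

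Among the phosphatases, DUSP6 had the closest link to SOX2 and DUSP4 and DUSP5 had none. DUSP6 (chr12:89347235-89352501, minus strand) is the cytoplasmic phosphatase most specific for ERK. Its locus held 3 naïve and 2 primed BRG1 peaks, 4 naïve and 6 primed BAF155 peaks, 0 BRM peaks and SOX2 peaks of both states. A single common region of 5.19 kb, chr12:89349276-89354463, covered the start and much of the gene. Inside the gene lay 2 naïve SOX2 peaks, 1.92 kb from the 5′ end with a fold of 9.66 and 2.43 kb from it with a fold of 8.08. A primed peak of 851 bp and fold 10.2 overlapped both. A further primed peak of fold 6.40 was 0.796 kb upstream, and another of fold 4.65 was 6.36 kb beyond the 5′ end, in a primed-only region. State-specific regions were split by side. Both naïve-only regions lay upstream, 12.3 and 20.5 kb away with folds of 2.95 and 3.06, and all 5 primed-only regions lay in or downstream of the gene, between 4.83 and 35.4 kb from the 5′ end with folds of 2.74 to 3.26.

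DUSP5 (chr10:110497907-110511533, plus strand) encodes a nuclear ERK phosphatase. Its locus held 6 naïve and 3 primed BRG1 peaks and 10 naïve and 9 primed BAF155 peaks, and no SOX2 peak in either state. It had 4 naïve-only and 4 primed-only regions, again split by side. All 4 naïve-only regions were upstream, 10.3 to 41.0 kb from the 5′ end, in introns of the divergent transcript DUSP5-DT. Among them was the naïve-only region of highest fold at any of the 10 loci, chr10:110456533-110457214, with a fold of 5.67 and a BRM peak of fold 5.57. Of the primed-only regions 3 were downstream, and the highest, chr10:110553587-110554258, 56.0 kb from the 5′ end, had a fold of 5.80, also the highest of its class at the loci. The nearest coding start to that region was of SMC3, 13.8 kb away. The remaining primed-only region was 1.67 kb upstream at the start of DUSP5-DT.

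DUSP4, on chromosome 8, encodes a nuclear phosphatase for ERK and other MAP kinases. Its locus was the most sparse, with 5 naïve and 3 primed BRG1 peaks, 4 BAF155 peaks in each state, 2 BRM peaks and 0 SOX2 peaks. Its 2 naïve-only regions were downstream, 31.5 and 63.4 kb from the 5′ end, and the farther one, of fold 3.88, held a BRM peak of fold 3.19. The nearest coding start to that farther region was of KIF13B, 24.2 kb away. The only primed-only region was 51.0 kb upstream with a fold of 3.34.

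The strongest primed SOX2 peak of each of SPRY2, SPRED2 and SPRY1 exceeded those of the other loci, whereas SPRY4 had none above a fold of 7.78. SPRY2 (chr13:80335976-80341126, minus strand) had 9 naïve and 5 primed BRG1 peaks, 5 BAF155 peaks in each state, and 4 primed and 2 naïve SOX2 peaks. As many primed SOX2 peaks were found at 2.69% of all genes. The highest, chr13:80359446-80360170, 18.7 kb upstream, had a fold of 22.3, the largest at any of the loci, and lay in a common region of 1.79 kb. Of the other primed peaks, the one of fold 7.71 was 0.819 kb upstream of the 5′ end and the one of fold 4.11 was 43.8 kb beyond it. The last, of fold 9.41 at chr13:80276479-80276769, coincided with a naïve peak of fold 5.20. The other naïve SOX2 peak, of fold 4.33, was 4.03 kb upstream in a naïve-only region, and no primed SOX2 peak overlapped it. Of the 4 naïve-only regions 3 were downstream, and the highest had a fold of 3.56, 21.9 kb from the 5′ end. The sole primed-only region was 20.9 kb upstream with a fold of 2.71.

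SPRY1 (chr4:123396795-123403760, plus strand) had 4 naïve and 3 primed BRG1 peaks and 3 naïve and 6 primed BAF155 peaks. Its 3 primed SOX2 peaks were all away from the gene and none overlapped a naïve peak. They were 17.8 kb upstream with a fold of 8.39, 21.9 kb downstream of the 5′ end with a fold of 16.4, and 47.8 kb downstream with a fold of 6.56. The first lay in the primed-only region chr4:123378426-123379237 of fold 4.45, whose sequence is given above, and the other two in common regions. The one naïve-only region was 17.4 kb from the 5′ end with a fold of 2.53.

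SPRY4 (chr5:142310427-142326455, minus strand) had 5 naïve and 2 primed BRG1 peaks, 10 naïve and 9 primed BAF155 peaks and 4 primed SOX2 peaks with no naïve one. Of these 2 were in the gene near its start, 0.268 and 1.29 kb from the 5′ end with folds of 7.78 and 7.10. The others, 6.53 kb inside the gene with a fold of 6.36 and 35.6 kb from the 5′ end with a fold of 5.94, were both in primed-only regions. The naïve BRM peak of fold 5.36 was in an exon of SPRY4, 12.1 kb from the 5′ end, inside a naïve-only region of fold 5.20. The primed-only region of highest fold, 3.66, was 31.1 kb from the 5′ end. The common region of highest fold, 6.03, was 30.6 kb upstream at chr5:142355926-142358126 and held no SOX2 peak of either state.

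SPRED2 (chr2:65310851-65432637, minus strand) had 5 naïve and 3 primed BRG1 peaks and 8 naïve and 10 primed BAF155 peaks. A primed SOX2 peak of fold 20.9 at chr2:65437750-65438540 was 5.51 kb upstream, in a common region of 3.18 kb that also held a naïve BRM peak. Farther out, 157 kb from the 5′ end and downstream of the gene, a site was shared by SOX2 of both states, with folds of 6.83 primed and 5.76 naïve, and by a BRM peak of fold 3.10. The remaining primed SOX2 peak, of fold 6.87, lay 20.0 kb inside the gene in a primed-only region of fold 3.59. The BRM peak of highest fold, 3.11, was 54.6 kb inside the gene at an internal SPRED2 start. Of the 5 primed-only regions the highest fold, 3.99, was 132 kb from the 5′ end, and of the 2 naïve-only regions the highest, 3.40, was 169 kb from it. That naïve-only region lay in an intron of ACTR2. The nearest coding start was of ACTR2 both there and at the shared SOX2 site 157 kb out.

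The ETV genes differed from each other. ETV1 (chr7:13891229-13991425, minus strand) had 3 BRG1 peaks in each state and 3 naïve and 7 primed BAF155 peaks. It had the most primed-only regions of the loci, 6, and 2 naïve-only ones, a log2 balance of -1.22. The highest of the primed-only regions had a fold of 4.18 and was 71.1 kb inside the gene. At the start sat 2 primed SOX2 peaks, with folds of 10.4 and 6.41, both within the common region of 4.83 kb, and naïve SOX2 peaks numbered 0. The naïve-only region of highest fold, 3.02, was 11.6 kb upstream.

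ETV5 (chr3:186046314-186110318, minus strand) had 5 naïve and 3 primed BRG1 peaks and 5 naïve and 9 primed BAF155 peaks. SOX2 occupied different places in each state. The naïve peak, of fold 6.35, was 30.2 kb inside the gene at an internal ETV5 start that is also a start of ETV5-AS1. The primed peaks were near the start, at chr3:186107586-186108048 with a fold of 9.25, and 12.3 kb inside with a fold of 3.66, and all 3 were in common regions. Of the 5 primed-only regions 3 were 11.9 to 18.0 kb upstream, in introns of DGKG, with folds of up to 3.52. The naïve-only region of highest fold, 3.23, was 42.8 kb inside the gene.

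ETV4 (chr17:43527844-43579620, minus strand) had more naïve-only than primed-only regions at the reported settings. It had 12 naïve and 1 primed BRG1 peaks and 10 naïve and 8 primed BAF155 peaks, and 11 naïve-only against 3 primed-only regions, a log2 balance of 1.58. Of the 11 naïve-only regions 8 lay inside the annotated gene, much of which DHX8 also overlaps, and the highest, of fold 3.99, was in an exon 51.1 kb from the 5′ end. The strongest common region at any of the 10 loci, of fold 6.18 at chr17:43530464-43531275, held a primed SOX2 peak of fold 13.8 and a naïve BRM peak of fold 3.47, at an internal ETV4 start. The naïve SOX2 peak, of fold 4.83, was elsewhere, 35.3 kb from the 5′ end near a DHX8 start. The single primed BRG1 peak of the locus coincided with the SOX2 site.

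Motif letters in the BAF regions of the loci were near those of all BAF regions. Letters were searched on both strands in 200 bp at the midpoint of each region, which in a wide common region need not be where the peak is highest. SOX letters (CATTGT or CTTTGT) were present in 14 of 37 primed-only regions, 37.8% with an interval of 22.5 to 55.2%, and in 34.9% of the class. They were present in 5 of 36 naïve-only regions, 13.9% with an interval of 4.67 to 29.5%, against 22.3%, and in 10 of 36 common regions, 27.8% with an interval of 14.2 to 45.2%, against 18.2%. The ETS letters CNGGAAG, the core to which ETV factors bind, were present in 18 of all 109 regions, 16.5% with an interval of 10.1 to 24.8%, against 17.0% of all BAF regions. The AP-1 letters TGANTCA were present in 10 of 109, 9.17%, against 8.19%. The OCT letters ATGCAAAT were present in 4 of 109, 3.67%, against 2.87%. The KLF letters GGGNGNGGC were present in 15 of 109, 13.8%, against 12.6%, and the TFAP2 letters GCCNNNGGC, which can overlap them, in 10 of 109, 9.17%, against 11.6%. The TEAD letters GGAATG were present in 14 of 109, 12.8%, against 14.0%. The primed SOX2 peaks of the loci had SOX letters in 12 of 23, 52.2% with an interval of 30.6 to 73.2%, against 59.5% of the whole list.

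Other genes of the pathway had higher median balances than the 10 loci, and these medians were not tested against each other. Of 20 further feedback and ERK-responsive genes, 10 had at least 2 times more naïve-only regions and 2 at least 2 times more primed-only regions, with a median log2 balance of 0.94. These counts are near the 51.0% and 12.4% of all genes that met the same rules. The highest balances were at IER2, 3.70, and SPRED3, 3.17, and the lowest at EGR2, -2.00, and PHLDA1, -1.00. Of 21 genes of the kinase cascade and its adaptors, 17 had at least 2 times more naïve-only regions and 0 the reverse, with a median of 1.51, a naïve-rich share above the 51.0% of all genes. Among them MAP2K2, which encodes a MEK kinase, had a balance of 4.58 and the adaptor FRS3 3.70, and the lowest, 0.00, was shared by FRS2, MAP2K1 and RPS6KA3. Of 16 other ETS factors 7 had at least 2 times more naïve-only regions and 1 the reverse, with a median of 0.77, again near the background. ELF1 and ELF3 had the highest balance, 3.17, and EHF, -1.00, and ETS2, -0.74, the lowest. Primed SOX2 peaks were present at 17 of the 20 further feedback genes, 8 of the 21 kinase genes and 8 of the 16 ETS factors. The share of all genes was 42.5%. The share of the further feedback genes, 85.0%, was no lower than the 80.0% of the 10 loci. A naïve BRM peak was present at 16, 17 and 13 genes of these lists in turn, against 70.1% of all genes.

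**Figure D5:**
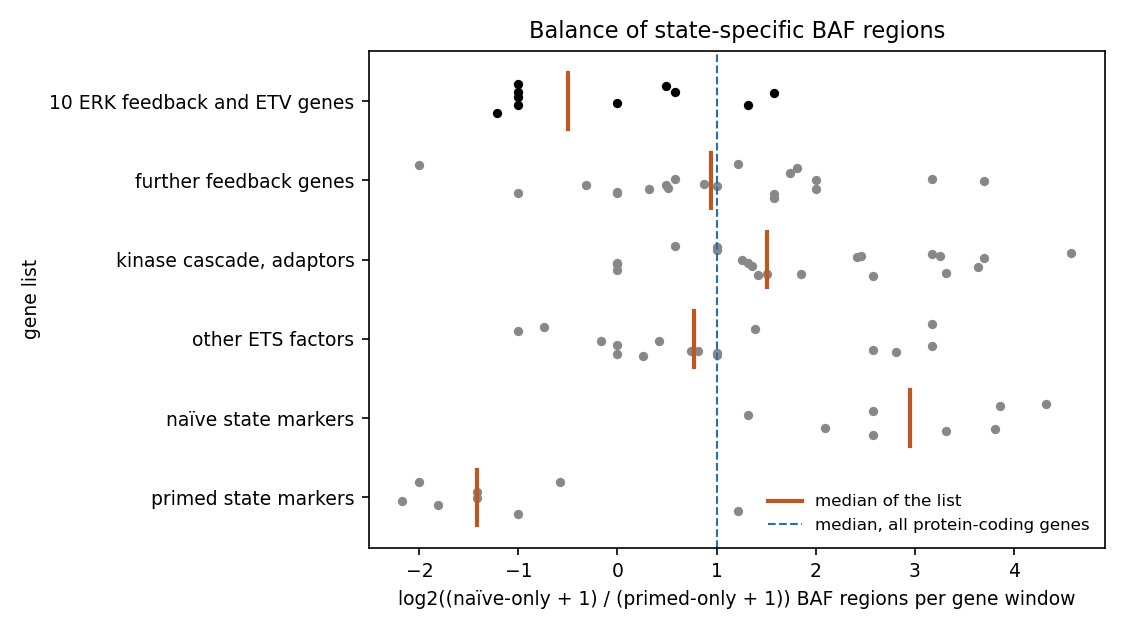
Log2 of naïve-only over primed-only BAF regions per gene window, 1 added to each count, for the 10 loci (black) and the genes of 5 other lists (grey), with list medians in orange and the median of all protein-coding genes, 1.00, dashed. The 10 loci have a median of -0.50, and the marker lists of the naïve and primed states lie at 2.95 and -1.42.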

How the data were processed

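ChIP-seq peak lists of naïve and primed WIBR3 hESCs were used. According to the study's methods, the authors mapped reads to hg38 with Bowtie2, which the submitters' processing notes give as version 2.3.4, removed duplicates, and called peaks with MACS2 against the input, broad for BRG1, BAF155 and BRM and narrow for SOX2. The deposited lists give each peak a fold enrichment (a linear ratio over input), a score, and a −log10 p and q value. The primed BRM list gives positions only. Whether libraries were pooled before SOX2 peaks were called is not given in the sources used here. Peaks on chromosomes X, Y and the autosomes were kept, and all lay within the hg38 chromosome lengths. The lists hold no read totals, and read depth was not used here.

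From these lists, in Python 3.11.15 with scipy 1.17.1, BRG1 and BAF155 peaks of each state were merged into BAF regions and classed by overlap of at least 25% of either region. A site belonged to a locus by its midpoint. Promoters were 1 kb on either side of any GENCODE 44 start. Every rule was run over all 20033 protein-coding genes for the background. Named sites were, at each locus, the BAF region at the gene's start, the naïve-only and primed-only regions and the BRM peak of highest fold, and every SOX2 peak; from each other list, the 2 genes with the highest and the 2 with the lowest balance. Overlap, counting and motif steps were tested on simulated data. Members and lists were chosen with earlier results of these data known. Alternatives covered the overlap rule, peak thresholds, list length, BAF155 alone, window size and motif letters.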

Additional observations from a re-analysis of the deposited data

How the results depend on the processing

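Of 107 values under alternative settings, 73 stayed close to those reported (counts within 1.5 times, shares within their 95% interval), and 34 moved. This tally covers values at the loci alone. Over the whole lists primed-only regions outnumbered naïve-only ones when peaks needed a −log10 q of 3 or more, or a fold of 4 or more. With an overlap of at least 25% of both regions, 3 loci, against 11.2% of all genes, were primed-rich (at least 2 times more primed-only than naïve-only regions; naïve-rich is the reverse) and 60.9% of primed SOX2 peaks were in a primed BAF region. With at least 50% of both there were 62 naïve-only, 56 primed-only and 17 common regions, 1 primed-rich locus (8.96% of genes) and 26.1% of SOX2 peaks in BAF; a SOX2 peak much narrower than its BAF region cannot meet this rule. With a −log10 q of at least 3 there were 11 naïve-only and 10 common regions, 1 naïve-rich locus (27.7% of genes), 77.3% of SOX2 peaks in BAF (72.3% of the whole list), 3 members with both states at the start (15.6% of genes) and 2 with the wider primed region (20.7%). With a fold of at least 4 there were 4 naïve-only, 14 primed-only and 0 common regions, 0 naïve-rich loci (11.4% of genes), 50.0% of naïve BAF regions (2 of 4) with BRM, 40.9% of SOX2 peaks in BAF and 0 members with both states at the start (1.38% of genes); with a fold of at least 3, 1 member had the wider primed region (22.6%). With equal list lengths 0 loci were naïve-rich (34.7% of genes), and 0% of naïve BAF regions had BRM, whose list was then 167 peaks long. At that setting 5 primed SOX2 peaks were left, 100% in BAF, beside 7 naïve ones. With BAF155 alone 0 loci were naïve-rich (38.2% of genes). Flanks of 20 kb gave 23 naïve-only regions and 100% of SOX2 peaks in BAF, and flanks of 100 kb gave 63 naïve-only regions and 1 primed-rich locus (10.8% of genes). In 400 bp, 46.8% of BAF regions at the loci had SOX letters and 26.6% ETS letters, and the letters CCGGAAGT gave 1.83%. Where no cause is named, the cause was not tested. All alternatives for the widths at the 5′ end, and that of any transcript start, were chosen after seeing the data. No paired analysis was possible because the groups hold 1 list each and no result comes from a test; leaving out SOX2 replicate 1 or 2 left 23 primed and 7 naïve peaks and 95.7% in BAF, since both lists are the same. Read depth was not used here, and each count rests on 1 library.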

Other observations

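In the sequences of the primed SOX2 peaks at these loci, the letters CATTCA recurred. They were picked after the sequences had been read, so their counts are a description. In 200 bp at the midpoint, 9 of 23 primed SOX2 peaks held them on either strand, 39.1% with an interval of 19.7 to 61.5%, where 19.1% of the whole primed list did. With 400 bp the counts were 11 of 23, 47.8%, against 30.4%. In the 200 bp at its midpoint, the primed SOX2 peak of ETV4 held 4 runs and that of ETV5 near its start held 3. Neither of these 200 bp windows held the SOX letters CATTGT or CTTTGT, and the peaks are wider than the windows. Both are shown from the plus strand of hg38 with CATTCA on either strand in capitals.
ETV5, chr3:186107717-186107916: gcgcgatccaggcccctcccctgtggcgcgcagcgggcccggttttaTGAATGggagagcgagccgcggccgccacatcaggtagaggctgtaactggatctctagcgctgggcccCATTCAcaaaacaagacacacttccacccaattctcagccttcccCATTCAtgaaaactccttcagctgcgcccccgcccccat
ETV4, chr17:43530767-43530966: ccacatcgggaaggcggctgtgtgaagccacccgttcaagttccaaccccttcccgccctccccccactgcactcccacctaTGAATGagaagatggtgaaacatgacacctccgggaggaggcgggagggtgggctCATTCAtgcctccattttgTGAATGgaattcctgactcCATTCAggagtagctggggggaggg
Of the naïve SOX2 peaks 2 of 7 held these letters, 28.6%, against 16.5% of the whole naïve list, and of all BAF regions at the loci 16 of 109 did, 14.7%, against 10.7%.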
